A study of Mus musculus with 6 samples.

Results

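The genes described here are 10 genes of the AP-1 transcription factor and the immediate early response: the FOS family (Fos, Fosb, Fosl1 and Fosl2), the JUN family (Jun, Junb and Jund), and Egr1, Ier2 and Ier3. They were chosen by symbol, all 10 were among the 21878 gene symbols of the deposited table, and all 10 were among the 12889 genes tested. The RNA came from HT22, an immortalized mouse hippocampal neuronal line. The control group (3 biological replicates, library letter C) and the Al group (3 biological replicates exposed to 120 µM aluminum maltolate for 24 h, library letter M) were sequenced as the input fraction of an m6A immunoprecipitation experiment, so the RNA was fragmented and not enriched. The labels give only these letters and a range of concentrations, and M was read as the Al group. The dose comes from the study's sequencing methods. These do not give the hours, and the time comes from the general treatment methods. The methods describe a control in medium and a control with maltol alone, and do not state which one was sequenced. Both groups were the same line at 1 time point, and the labels name no other genotype or agent. As an immortalized, dividing line, HT22 is a limited model of mature neurons.

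AP-1 is a dimer of basic leucine zipper proteins. JUN proteins can pair with one another or with FOS proteins, whereas FOS proteins need a JUN partner to bind DNA. Most of these genes are immediate early genes. Existing kinases and DNA-bound factors such as SRF and CREB switch them on without new protein synthesis, and their mRNAs are usually short-lived because of AU-rich elements in the 3′ untranslated region (3′UTR). In hippocampal neurons Fos and Egr1 are widely used as marks of recent activity.

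The pentamer ATTTA is the core of the AU-rich element, and the stretches of 30 bases below show where it lies in the 3′UTR of 8 of these mRNAs. They are shown because this element is known to shorten the life of immediate early mRNAs. The sequences are those of the GENCODE transcripts on GRCm38, on the sense strand from 5′ to 3′, with ATTTA in capitals.
Fos: tgtgttttcaATTTATTTAttaagatggat
Fosb: ccacccccagctATTTAtccctttcctggt
Fosl1: agggcagctgctATTTAttttcctaaagag
Fosl2: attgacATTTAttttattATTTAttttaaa
Jun: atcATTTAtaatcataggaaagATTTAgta
Junb: atatatttgtgtATTTAacagggaggggag
Jund: cgattccgccctATTTAtgtttctactcgg
Ier3: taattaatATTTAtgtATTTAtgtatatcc
The whole 3′UTR held 8 pentamers in Fosl2, 5 in Ier3, 4 each in Fos and Jun, 2 each in Junb and Egr1, and 1 each in Fosb, Fosl1 and Jund. Ier2 held 0. The median over the 12148 tested genes with an annotated 3′UTR was 1, and 35.8% of them held at least 3. The nonamer TTATTTATT, a stricter form of the element, was present in Fos and Fosl2 and in 7.77% of those genes. The match is a description of the letters, and mRNA decay was not measured in these libraries.

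The promoters of Jun and Fos are shown because both mRNAs rose with Al and because each window held 1 of the motifs searched. They are RefSeq windows on GRCm38.p6 from 250 bases before to 50 bases after the transcription start, on the sense strand of the gene. The Jun window is chr4:95052173-95052472 on the minus strand, and the Fos window is chr12:85473640-85473939 on the plus strand.
Jun: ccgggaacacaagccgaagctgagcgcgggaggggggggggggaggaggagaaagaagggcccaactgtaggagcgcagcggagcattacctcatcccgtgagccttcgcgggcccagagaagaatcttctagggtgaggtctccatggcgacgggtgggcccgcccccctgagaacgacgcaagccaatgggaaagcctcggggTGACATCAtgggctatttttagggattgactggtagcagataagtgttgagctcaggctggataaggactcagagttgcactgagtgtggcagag
Fos: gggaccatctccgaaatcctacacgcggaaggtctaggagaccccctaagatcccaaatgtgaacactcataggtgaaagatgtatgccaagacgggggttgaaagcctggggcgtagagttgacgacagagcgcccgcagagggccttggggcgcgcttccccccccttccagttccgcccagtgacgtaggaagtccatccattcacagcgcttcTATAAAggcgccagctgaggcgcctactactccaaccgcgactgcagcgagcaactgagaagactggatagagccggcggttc
The capitals in Jun mark TGACATCA, at positions -45 to -38 from the start, a match to TGACNTCA, which is the cyclic AMP response element with 1 free base and overlaps the stricter form TGACGTCA. The capitals in Fos mark TATAAA at positions -33 to -28. Windows were found for 7 of the 10 genes (Fos, Fosb, Fosl2, Jun, Junb, Jund and Ier3). The RefSeq start lay within 30 bases of the GENCODE gene start for 5 of them, but 1210 bases before it for Jund and 671 bases inside the gene for Fosl2, so those windows hold for the RefSeq starts alone. On either strand of these 7, there was no match to the AP-1 motif TGANTCA, to TGACGTCA, to the EGR motif GCGTGGGCG or to the CArG box bound by SRF. Those motifs occurred in 7.81%, 1.79%, 0.612% and 1.63% of 32851 promoter windows. Sites outside the windows, inexact forms of these motifs, and Fosl1, Egr1 and Ier2, which had no window, were not covered. The absence of a match therefore does not mean that the promoters lack such sites. TGACNTCA and TATAAA were added after that search and occurred in 8.83% and 13.6% of the windows, and TATAAA was also found in Junb, at positions 1 to 6, after its start.

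On GRCm38 (GENCODE), Fosl1 lies at chr19:5447547-5455946 and Fosl2 at chr5:32135801-32157842, both on the plus strand, and Fosb at chr7:19302696-19310051 on the minus strand, each with 4 exons in the transcript used. Junb lies at chr8:84974484-84978718 and Ier2 at chr8:84661331-84662852, both on the minus strand, and Jund at chr8:70698949-70700616 on the plus strand, each with 1 exon in the transcript used. Ier3, with 2 exons, lies at chr17:35821684-35822923 on the plus strand. FPKM count reads over the exons of a gene per its length, and the lengths behind the values were recovered from the table. That of Jun, 3187 bases, was close to the 3189 bases of its annotated transcript, and 8 of the 10 genes were within 11% of the annotation. Jund, with 2878 bases against 1668 annotated, and Egr1, with 3072 against 4484, were not, so their levels relative to other genes depend on the length used. Fold changes between the groups do not.

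The 3 control libraries were deeper than the Al libraries, with 38059492 to 44556768 counted reads against 21125631 to 26670978, as recovered from the steps of the FPKM values. The 50 most abundant genes took 18.04% to 19.4% of all FPKM in control cells against 30.01% to 32.5% with Al. Over all tested genes the log2 fold change had a median of -0.43 with FPKM as deposited and 0.03 after size-factor scaling. The size factors bring this median near 0 by construction, so its value is no evidence for the choice. They assume that the typical gene did not change, which was not tested. The fold changes below are after scaling unless stated, and levels of single genes given as FPKM alone are as deposited. Of 10 neuronal marker genes, 2 (Tubb3 and Eno2) reached 1 FPKM in any library and Snap25 and Nefm were listed at 0 in all, and the summed level of the list was 6.49 to 8.11 scaled FPKM in control cells against 4.79 to 8.08 with Al, with 0 of the 3 tested members called and 0 with an unadjusted P under 0.05. The sums that follow are also in scaled FPKM, control first. The 5 fibroblast markers, Col1a1 and Col1a2 among them, summed to 1748 to 2736 and 3142 to 4420, nearly all of it these collagens. Of the 5, 2 were called higher and 2 lower, and as deposited Dcn went from 3.77 to 13.4 FPKM in control cells to 1.24 to 2.29, and Pdgfra from 8.498 to 17.004 FPKM to 2.66 to 6.21. The 5 neural progenitor markers summed to 961 to 1007 and 1025 to 1416, nearly all of it Vim, which was not called, with Sox2 listed at 0 in all. Sums of the 5 astrocyte markers were 11.998 to 19.7 and 1.95 to 2.90, mostly Slc1a3, with Aqp4 listed at 0 in all. The 5 oligodendrocyte markers summed to 0.171 to 0.303 and 0.498 to 1.39, and the 5 microglia and macrophage markers to 0.615 to 1.02 and 0.770 to 1.83. The part of these markers in the results was not tested, and in bulk RNA a change in the number of cells of a type and a change in RNA per cell cannot be told apart.

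Al exposure was accompanied by higher mRNA of Ier3, Fosl1, Fos, Jun, Junb, Egr1 and Fosl2, and by no call for Fosb, Ier2 and Jund. A gene was called at an adjusted P under 0.05 (limma, Benjamini-Hochberg over all tested genes) with an absolute log2 fold change over 0.58. By this rule 7 of the 10 genes were higher and 0 were lower, where 25.5% of all tested genes were called higher and 23.7% lower. With FPKM as deposited the counts were 5 and 0, beside 13.5% and 41.3% of all tested genes, and as TPM 5 and 2, beside 8.84% and 52.3%. Fosl2 and Egr1 lost the call under both and, as TPM, Jund and Ier2 were called lower. The genes that kept it had smaller fold changes there, down to 1.32 for Fos, 0.89 for Jun, 0.73 for Junb, 2.27 for Fosl1 and 2.43 for Ier3 as TPM on the log2 scale. At an unadjusted P under 0.05 and the same fold change the counts for these genes were also 7 and 0. The median log2 fold change was 1.22 over the 10 genes and 0.03 over all tested genes. After scaling, the Al libraries of the same 7 genes all lay above the control libraries, a separation shown by 35.1% of all tested genes. None of the 10 had all Al libraries below the control libraries, as 33.1% of all tested genes did. For each of these 7 the two-sided exact permutation test over libraries gave P = 0.1, the smallest that 3 against 3 allows.

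**Figure D1:**
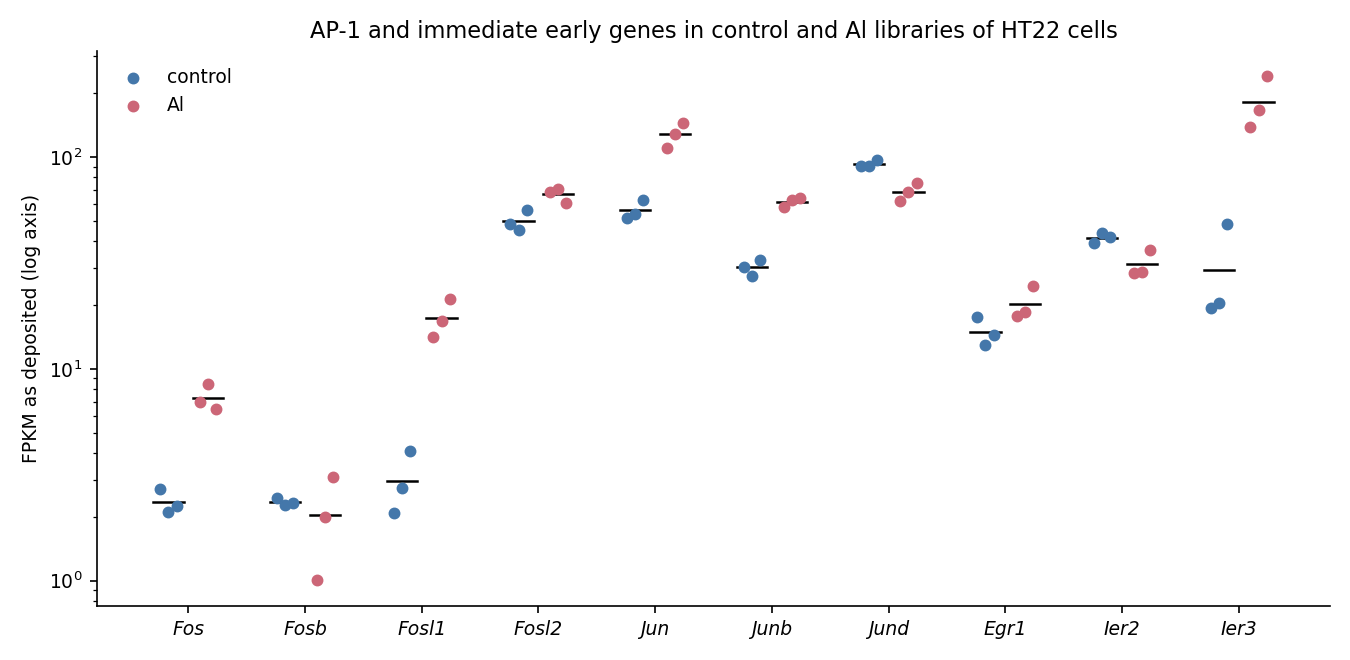
FPKM of the 10 genes as deposited, on a log axis. Each point is 1 library (blue, control; red, Al; n = 3 each) and each bar is the group mean; Ier3, Fosl1, Fos, Jun, Junb, Fosl2 and Egr1 lie higher in all Al libraries, whereas Jund and Ier2 lie lower on this unscaled axis.

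Within the FOS family, Fosl1 and Fos rose most. Fosl1 encodes FRA-1, a FOS protein without the long transactivation domain of c-FOS, typical of sustained growth factor signalling and of mesenchymal cells. Its FPKM was 2.10, 2.73 and 4.08 in the control libraries against 14.1, 16.7 and 21.3 with Al. The lowest Al library stood well above the highest control library. The difference on the log2 scale was 3.02 ± 0.23 (SE), an 8.10-fold difference (adjusted P = 1.76e-05), and it ranked 84 among the 12889 tested genes. The values rested on 136 to 310 reads in control cells against 624 to 766 with Al. Fosl1 shares 1163 exonic bases with Ccdc85b on the opposite strand. Ccdc85b itself had 9.73 to 10.6 FPKM in control cells against 14.4 to 16.96 FPKM with Al. The kit is stranded but the sources used here do not state whether strand entered the counting, so the part of Ccdc85b reads in the value was not tested.

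Fos encodes c-FOS, the partner of JUN in the classic, transient AP-1 response. Its FPKM was 2.71, 2.11 and 2.24 in the control libraries against 6.95, 8.50 and 6.45 with Al. The groups did not overlap, although Fos remained one of the least abundant of the 10 genes in the Al group. On the log2 scale the fold change was 2.06 ± 0.18 (4.18-fold, adjusted P = 3.47e-05), from 192 to 216 reads against 285 to 389.

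Fosl2 encodes FRA-2, a FOS protein that is often present in unstimulated cells. It was by far the most abundant FOS mRNA, at 48.0, 45.4 and 56.3 FPKM in the control libraries against 68.6, 70.7 and 60.3 FPKM with Al. The highest control library and the lowest Al library were close on this scale. After scaling, the levels were 42.2 ± 5.39 and 79.3 ± 12.5 (SD, n = 3 each). It was higher by 0.90 ± 0.15 on the log2 scale (adjusted P = 0.000767). This call rests on the scaling. The log2 fold change of Fosl2 was 0.42 with FPKM as deposited, 0.12 as TPM, 0.47 with quantile normalization and 0.49 with centring within expression bins, each under the threshold. Relative to the median of all tested genes it was 0.87, 0.85, 0.86, 0.50 and 0.41 under size factors and these 4 settings.

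Fosb did not pass the test. Its product FOSB, and the truncated form ΔFOSB, which is long-lived, are known from chronically stimulated neurons, and gene-level FPKM does not separate the forms. The FPKM was 2.45, 2.27 and 2.34 in the control libraries against 1.003, 2.002 and 3.10 with Al. The control libraries were nearly equal, whereas Al replicates 1 and 2 lay below all of them and Al replicate 3 above. After scaling, Al replicate 2 lay above them as well, at 2.47 against 1.88 to 2.08 scaled FPKM. The log2 fold change was 0.13 ± 0.31, with a 95% confidence interval from -0.57 to 0.84 (adjusted P = 0.72), and it was -0.15 without Al replicate 3 (adjusted P = 0.63) and 0.52 without Al replicate 1 (adjusted P = 0.047, under the fold threshold). The interval allows a rise past the threshold and a fall almost to it.

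Within the JUN family, Jun and Junb rose by similar amounts and Jund did not pass the test. Jun encodes c-JUN, the most strongly transactivating JUN protein and a substrate of the JNK kinases. The single-exon gene had 51.3, 53.7 and 62.9 FPKM in the control libraries against 110, 128 and 145 FPKM with Al. Every Al library was far above every control library, and the log2 fold change was 1.67 ± 0.12 (3.19-fold, adjusted P = 1.51e-05). Junb encodes JUNB, which can restrain c-JUN on some promoters. Its FPKM was 30.2, 27.3 and 32.8 in the control libraries against 58.2, 62.6 and 63.7 with Al. The groups were again far apart, and the log2 fold change was 1.52 ± 0.11 (2.86-fold, adjusted P = 1.50e-05). On the opposite strand, Junos overlaps Jun over 232 exonic bases and Prdx2 overlaps Junb over 173. The FPKM of Prdx2 was 112 to 128 in control cells against 131 to 202 with Al.

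Jund encodes JUND, which is usually expressed constitutively and is not an immediate early gene in the strict sense. Its FPKM as deposited was 90.8, 90.5 and 96.7 in the control libraries against 62.2, 68.6 and 75 with Al. All Al values were lower on this scale. After scaling they were 78.2 ± 3.93 and 81.0 ± 3.38 (SD, n = 3 each) and overlapped. The log2 fold change was 0.05 ± 0.10 after scaling (95% confidence interval -0.17 to 0.27, adjusted P = 0.67) and -0.44 with FPKM as deposited, where all tested genes had a median of -0.43. Under TPM, Jund was called lower at -0.74, the same as the median of all genes. Jund shares 877 of its 1668 annotated exonic bases with the antisense gene Gm11175.

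The make-up of each family shifted within the libraries, a measure that a common scale factor for a library cannot move. Jund supplied 52.7%, 52.8% and 50.3% of the summed JUN family FPKM in the control libraries against 26.9%, 26.5% and 26.4% with Al. On these lengths it was the most abundant JUN mRNA in the control libraries and Jun was in the Al libraries. Jun supplied 29.8% to 32.7% in control cells against 47.8% to 51.1% with Al, and Junb 15.9% to 17.6% and 22.5% to 25.2%. The ratio of Jun to Jund went from 0.603 ± 0.0433 to 1.86 ± 0.0785 (SD, n = 3 each, exact permutation P = 0.1, two-sided, the smallest possible). The size of such shares depends on the length taken for Jund. With annotated transcript lengths, a choice made after seeing the data, Jund supplied 63.4% to 65.7% in control cells against 38.2% to 38.7% with Al, and Jun 21.5% to 23.9% against 39.9% to 42.7%. The shift between the groups was then in the same direction, but Jun and Jund were close with Al, at 138 to 158 and 134 to 146 scaled FPKM. The ratio of Jun to Junb, in contrast, was 1.70 to 1.96 in control cells against 1.90 to 2.27 with Al, which overlapped (exact permutation P = 0.3).

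In the FOS family the share of Fosl2 was 86.9%, 86.5% and 86.7% in the control libraries against 75.7%, 72.2% and 66.2% with Al. Fosl2 thus remained the main FOS mRNA in every library. Fosl1 supplied 3.79% to 6.28% of the sum in control cells against 15.6% to 23.3% with Al. The share of Fos was 3.45% to 4.90% and 7.07% to 8.68%. The share of Fosb fell, from 3.59% to 4.44% in the control group to 1.11% to 3.40% in the Al group, without overlap (exact permutation P = 0.1). A share can fall without a fall in level, when other members of the sum rise more. The scaled level of Fosb was 1.99 in the control group against 2.35 with Al, and Fosb was not called. Fosl1 also shifted against Fosl2, by 4.49-fold in their ratio (exact permutation P = 0.1).

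The summed level of the FOS family was 48.7 ± 6.19 scaled FPKM in control cells against 111 ± 11.6 with Al, a log2 difference of 1.19. That of the JUN family was 151 ± 11.8 and 305 ± 15.3, a log2 difference of 1.01. The exact permutation P was 0.1 for both sums. The sums move with the scaling: as deposited the differences were 0.70 and 0.53, and as TPM 0.40 and 0.23. The FOS to JUN ratio within a library was 0.321, 0.306 and 0.338 in the control libraries against 0.393, 0.378 and 0.321 with Al. Al replicate 3 lay within the control range, and the log2 difference was 0.17 (exact permutation P = 0.2, where 0.1 is the smallest possible). On the same lengths but without replicate 3 of both groups, a choice made after seeing the data, it was 0.30. The overlap depends on the length of Jund. With annotated lengths the ratio was 0.201 to 0.224 in control cells against 0.246 to 0.298 with Al, without overlap.

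**Figure D2:**
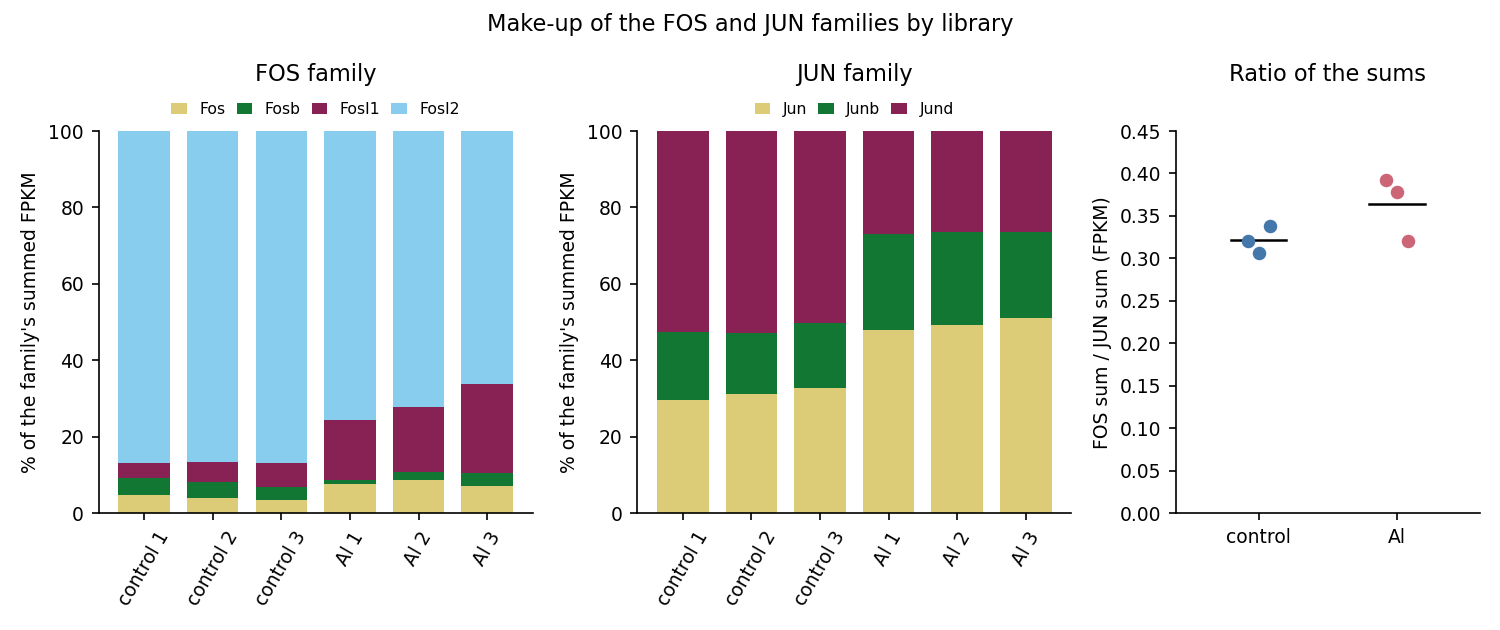
Share of each gene in the summed FPKM of its family (left, FOS; middle, JUN; in %, 1 bar per library) and the ratio of the FOS sum to the JUN sum (right, 1 point per library, bar at the mean, n = 3 each). Jund falls from over 50% to about 26% of the JUN sum, Fosl1 grows within the FOS sum, and the ratio of the sums overlaps between the groups, all on the lengths behind the deposited FPKM.

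Ier3 had the highest fold change of the 10 genes after size-factor scaling. It encodes a small membrane-associated protein induced by NF-κB, p53 and ERK signalling and linked to cell survival. Its FPKM was 19.4, 20.4 and 48.0 in the control libraries against 138, 166 and 241 with Al. Control replicate 3 stood apart from the other control libraries but far below every Al library. The log2 fold change was 3.21 ± 0.33 (9.24-fold, adjusted P = 6.84e-05), ranking 55 among the tested genes, and it was 3.63 without control replicate 3. Fosl1 passed Ier3 with quantile normalization (3.12 against 2.81) and with centring within GC (3.21 against 3.08) and expression bins (3.29 against 2.66). With length bins they were nearly equal (2.961 against 2.955). In the Al group Ier3 was the most abundant of the 10 genes, at 212 ± 44.1 scaled FPKM, whereas in the control group its 24.8 ± 14.0 overlapped Junb.

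Egr1 encodes a zinc finger factor of the immediate early response that binds GC-rich sites. Its FPKM was 17.5, 13.01 and 14.4 in the control libraries against 17.7, 18.6 and 24.6 with Al. As deposited, control replicate 1 almost reached Al replicate 1. After scaling the levels were 12.6 ± 2.03 and 23.8 ± 2.31 (SD, n = 3 each), and the log2 fold change was 0.92 ± 0.13 (adjusted P = 0.00047). The call was lost with FPKM as deposited (log2 fold change 0.43) and as TPM (0.13). Relative to the median of all tested genes, Egr1 was higher by 0.73 to 1.02 on the log2 scale under the 7 scalings.

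Ier2 encodes a nuclear protein of the immediate early response. Its FPKM as deposited was 39.2, 43.5 and 41.8 in the control libraries against 28.4, 28.6 and 36.2 with Al, all lower. After scaling the groups overlapped at 35.0 ± 1.599 and 36.6 ± 2.08 (SD, n = 3 each), with a log2 fold change of 0.06 ± 0.09 (95% confidence interval -0.15 to 0.27, adjusted P = 0.57). Like Jund, Ier2 was called lower as TPM, at -0.72 beside a median of -0.74 for all genes. Relative to the median of all tested genes, it ranged from -0.27 to 0.24 under the 7 scalings. The ratio of Ier3 to Ier2 within a library was 0.469 to 1.15 in control cells against 4.84 to 6.65 with Al.

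**Figure D3:**
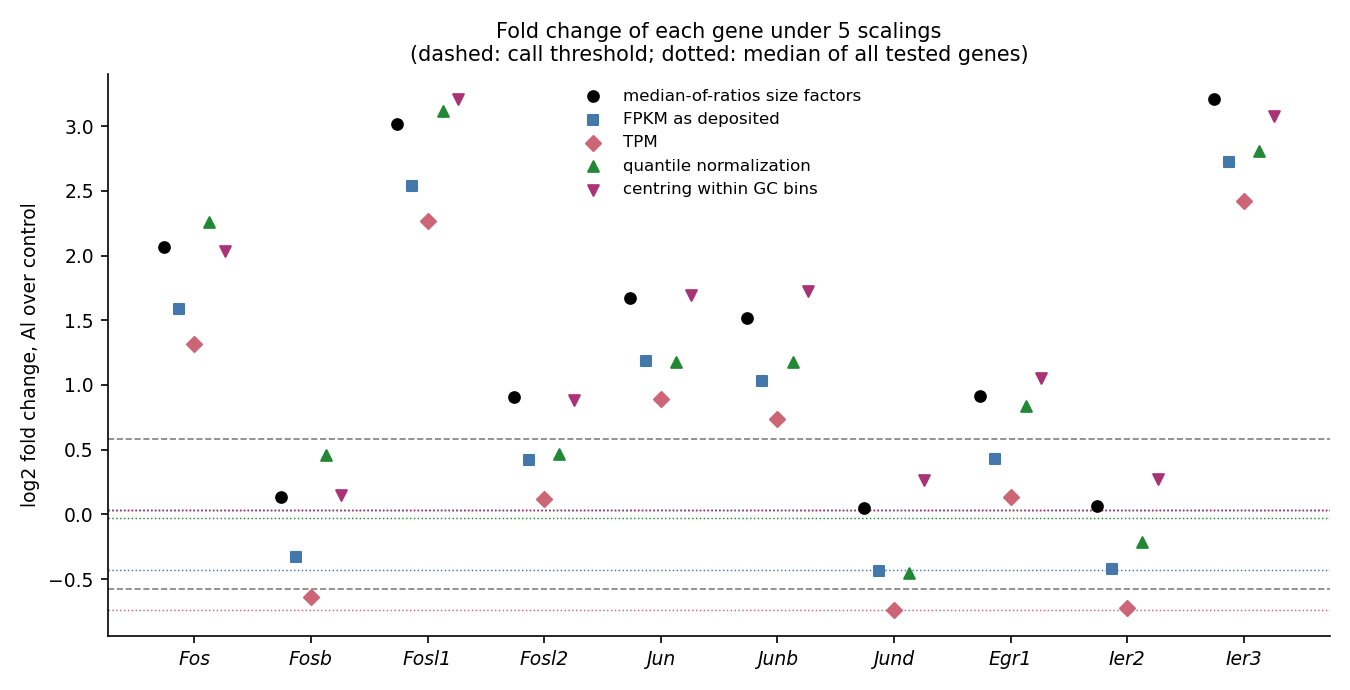
log2 fold change (Al over control) of each gene under 5 scalings, with the call threshold at 0.58 dashed and the median of all tested genes under each scaling dotted. Fos, Fosl1, Jun, Junb and Ier3 lie above the threshold under all 5, Fosl2 and Egr1 under some, and Jund, Ier2 and Fosb lie on either side of 0.

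The order of the levels per length differed between the groups. In the control group it ran, from high to low in scaled FPKM, Jund (78.2), Jun (47.3), Fosl2 (42.2), Ier2 (35.0), Junb (25.4), Ier3 (24.8), Egr1 (12.6), Fosl1 (2.51), Fos (1.99) and Fosb (1.99). The neighbours Jun and Fosl2, Junb and Ier3, Fosl1 and Fos, and Fos and Fosb overlapped between libraries. In the Al group it ran Ier3 (212), Jun (151), Jund (81.0), Fosl2 (79.3), Junb (72.9), Ier2 (36.6), Egr1 (23.8), Fosl1 (20.4), Fos (8.71) and Fosb (2.35). There Jund, Fosl2 and Junb overlapped in turn, as did Egr1 and Fosl1. Both orders rest on the lengths behind the FPKM. With annotated lengths Jund would stand at 135 in control cells and at 140 with Al, where it overlaps Jun, and Egr1 at 8.66 and 16.3, below Fosl1 (18.7) on the mean in the Al group. Al replicate 3 had the highest Fosl1, Ier3, Egr1 and Fosb of the Al libraries and the lowest Fos and Fosl2.

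All 10 genes are GC-rich relative to the tested genes, with 51.9% to 67.1% GC in the transcript against a median of 50.5%. After centring within GC bins, the same 7 genes were called, with log2 fold changes of 1.73 for Junb and 1.05 for Egr1, and Jund and Ier2 stood at 0.26 and 0.27 without a call. The counts were thus 7 higher and 0 lower with the GC correction as well.

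Other genes of the same response were read from lists, for which no set test was run. In these lists the levels are FPKM as deposited (mean ± SD, n = 3 each). The fold changes beside them are after scaling, so they differ from the ratio of the levels. The background of each count is the share of all tested genes, 25.5% higher and 23.7% lower after scaling, 13.5% and 41.3% with FPKM as deposited, and 8.84% and 52.3% as TPM. The other basic leucine zipper genes that pair with AP-1 proteins gave 3 higher and 1 lower of 8 tested, out of 15 listed, beside 25.5% and 23.7% of all tested genes. As deposited and as TPM the counts turned to 2 higher and 3 lower. The small MAF genes rose, Maff from 5.29 ± 0.436 to 22.7 ± 6.50 FPKM (log2 fold change 2.52, adjusted P = 1.28e-05), Mafk by 1.53 and Mafg by 0.80. These genes encode short MAF proteins without a transactivation domain. Mafg passed after scaling but stood at 0.32 with FPKM as deposited. Jdp2, which encodes a repressor that dimerizes with JUN proteins, fell from 42.9 ± 1.41 to 10.7 ± 0.987 FPKM (log2 fold change -1.51, adjusted P = 1.87e-05).

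Of 28 other immediate early genes tested, 15 were called higher and 1 lower, with a median log2 fold change of 0.81, beside 25.5% and 23.7% of all tested genes. The counts were 13 and 4 as deposited and 9 and 5 as TPM. Nr4a1, an orphan nuclear receptor, rose from 2.38 ± 0.308 to 20.6 ± 4.26 FPKM (log2 fold change 3.52, adjusted P = 4.68e-06). Gadd45b, a stress-responsive regulator of MAP kinase signalling, rose by 2.55, and Csrnp1, a nuclear factor first described as an AXIN1-induced gene, by 2.50. Cyr61, a secreted matricellular protein, went from 195 ± 55.4 to 505 ± 103 FPKM (log2 fold change 1.88, adjusted P = 0.000362), and Klf10, a zinc finger repressor, rose by 1.82. The lower gene was Homer1, a postsynaptic scaffold gene at a low level, named after its value was seen (log2 fold change -1.49). Gene-level FPKM does not separate the transcript forms of Homer1.

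The AP-1 target genes gave 14 higher and 2 lower of 26 tested, with a median of 1.04, beside 25.5% and 23.7% of all tested genes. They were 11 and 4 as deposited, 12 and 5 with quantile normalization and 7 and 6 as TPM. The growth factor gene Hbegf went from 1.78 ± 0.364 to 8.96 ± 1.24 FPKM (log2 fold change 2.75, adjusted P = 8.11e-06) and the cytokine gene Lif from 1.81 ± 0.600 to 6.60 ± 1.09 FPKM (2.31). Timp1, an inhibitor of metalloproteinases, rose by 1.74 and Spp1, osteopontin, by 1.43. F3, tissue factor, and Tgfb1 went the other way, by -0.81 and -0.64. Tgfb1 did not reach the threshold with centring in GC bins, at -0.43. AP-1 is one of several inputs to these genes, and no binding was measured.

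Of 30 upstream kinases and factors tested, 2 were called higher and 12 lower and 16 were not called, beside 25.5% and 23.7% of all tested genes, and the median was -0.40. Rps6ka3, the kinase RSK2, fell from 13.9 ± 0.644 to 3.18 ± 0.477 FPKM (log2 fold change -1.62, adjusted P = 1.39e-05). Map2k6, a p38 kinase kinase, stood at -1.35, Crtc3, a CREB coactivator, at -1.25, Mkl1, an SRF coactivator, at -1.23 and Mapk9, which encodes JNK2, at -1.20. The higher calls, Rps6ka4 at 0.70 and Mapk7 at 0.62, were not made with FPKM as deposited, where the list gave 0 higher and 19 lower beside 41.3% lower over all tested genes. As TPM it gave 0 and 26 beside 52.3%. mRNA levels do not measure kinase activity.

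Of the 11 regulators of AP-1 and EGR1 tested, 0 were called in either direction by limma after scaling or by voom on the recovered reads. An unadjusted P under 0.05 was reached by 5 of them, with fold changes within the threshold, and 7 were called lower with FPKM as deposited and 10 as TPM, beside 41.3% and 52.3% of all tested genes. In the other direction, 1 was called higher with quantile normalization, with length or expression bins, and without Al replicate 1 or 3. Without replicate 3 of both groups, 1 was called lower. The genes of AU-rich element binding and mRNA decay were mixed, with 8 higher and 4 lower of 21, beside 25.5% and 23.7% of all tested genes. The balance turned to 3 higher and 9 lower as deposited and 2 and 10 as TPM. Hnrnpd, which encodes the AU-rich element binding protein AUF1, rose from 13.6 ± 0.495 to 31.2 ± 1.35 FPKM (log2 fold change 1.67, adjusted P = 1.07e-05). Dcp1a, a decapping factor, rose by 1.396, Zfp36l2, a decay factor, by 0.89 and Elavl1, the stabilizing protein HuR, by 0.89. Parn, a deadenylase, fell to 1.90 ± 0.354 from 10.2 ± 2.02 FPKM (log2 fold change -1.89). Khsrp, a decay factor, stood at -1.05, Tia1, a translational silencer, at -0.998 and Pan2, a deadenylase subunit, at -0.71. Within this list, Zfp36l2 and Elavl1 did not reach the threshold with FPKM as deposited, at 0.40 each, nor Pan2 with quantile normalization, at -0.49.

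**Figure D4:**
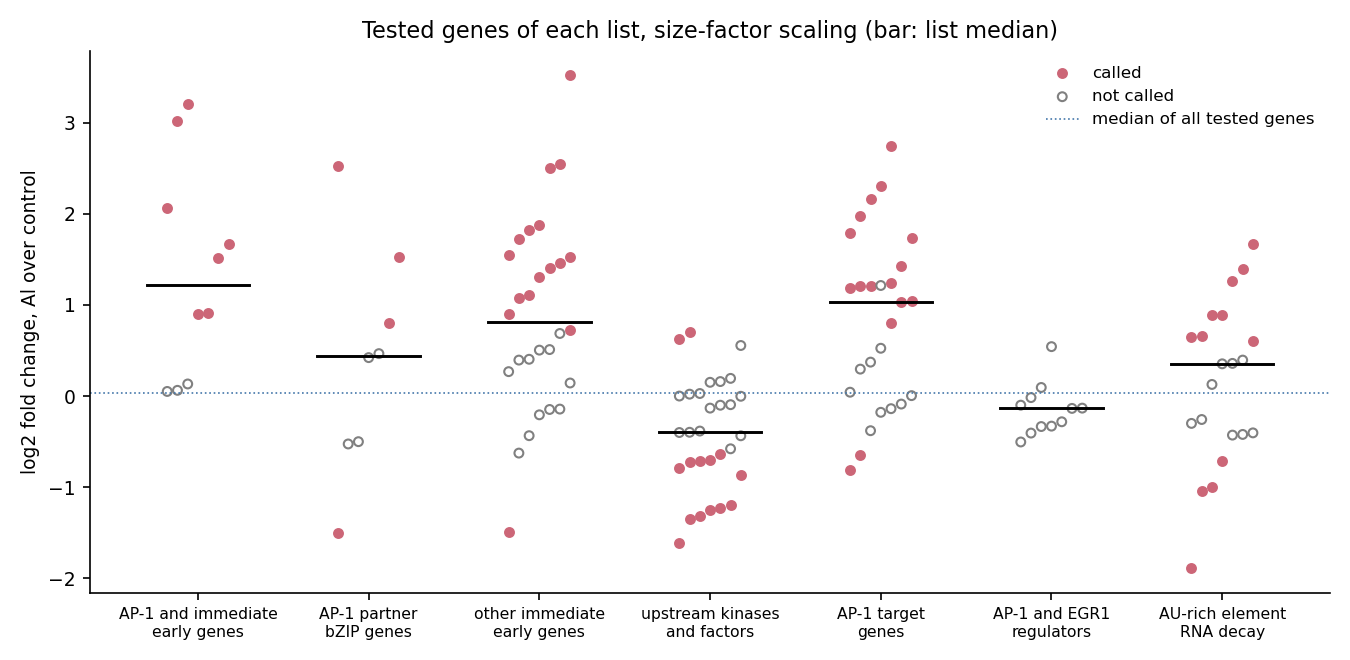
log2 fold change (Al over control, after size-factor scaling) of the tested genes in the 10 AP-1 and immediate early genes and in 6 related lists. Each point is a gene, filled where called, bars are list medians and the dotted line is the median of all tested genes; the medians of immediate early and AP-1 target genes lie above it and that of the upstream kinases and factors below.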

How the data were processed

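RNA of 6 HT22 input libraries was analysed, 3 control and 3 Al. The authors deposited 1 FPKM value per gene symbol and library. The submitters' processing notes name fastp, HISAT2, HTSeq and GRCm39, whereas the study's methods name Trimmomatic, SortMeRNA, HISAT2 and GRCm38, and the series' design text names a genome build of another species, so the build and annotation behind the FPKM are unsure. The study called genes with DESeq2, which was not repeated here.

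Values were divided by median-of-ratios size factors over 10337 genes and analysed as log2(value + 0.1), so fold changes of low genes are understated. Genes averaging 0.1 FPKM or more, 12889 in all, were tested with limma 3.58.1 in R 4.3.3 (lmFit, eBayes with trend), and Benjamini-Hochberg adjustment covered all of them. A gene was called where its adjusted P was under 0.05 and its log2 fold change exceeded 0.58 in size. Single values were compared by two-sided exact permutation tests over libraries (scipy 1.17.1). Reads were recovered as whole numbers for 17687 of 17688 genes above 0 (tolerance 1e-07 of a read) and served for depth and for voom. Replicates of a group differed by more than counting noise, and replicate 3 stood apart in both groups. By chi-square per degree of freedom, control replicates 1 and 2 differed by 14.9, and replicate 3 from them by 48.8 and 34.7. Al replicates 1 and 2 differed by 17.8, and replicate 3 from them by 68.1 and 47.7. The replicates are named biological in the study's text.

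The 10 genes and all lists were chosen with earlier results of these data known. List genes were named if called and averaging 1 FPKM or more, at most 5 per direction by size. Some list genes that met this rule are not reported here. Alternatives covered the scaling, bins of GC, length and expression (20 each), pseudocounts, filters, eBayes, a replicate block, each library left out, thresholds and voom. GC content, 3′UTRs and overlaps came from GENCODE on GRCm38, and promoters from RefSeq. The procedure was tested on simulated data. Immunoprecipitated libraries were not analysed here.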

Additional observations from a re-analysis of the deposited data

How the results depend on the processing

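The higher count for the 10 genes lay between 5 and 7 over 22 alternatives, and the lower count was 0 in all but TPM, where it was 2 (Jund and Ier2). The calls of Fos, Fosl1, Jun, Junb and Ier3 were kept under every alternative run, with log2 fold changes of 1.32 to 2.43, 2.27 to 3.29, 0.89 to 1.76, 0.73 to 1.73 and 2.43 to 3.63; Fosl2 lost its call under 5 and Egr1 under 3. Signs changed for the uncalled genes. Fosb was -0.33 as deposited and -0.64 as TPM, and -0.15 to 0.52 when 1 library was left out; it was -0.16 without replicate 3 of both groups. Jund was -0.44, -0.74, -0.46, -0.038 and -0.50, and Ier2 -0.42, -0.72, -0.21, -0.11 and -0.20, as deposited, as TPM, with quantile normalization and with centring in length and expression bins. Over all genes, 3291 were higher and 3053 lower, against 1736 and 5321 as deposited, 1140 and 6738 as TPM, and 2028 and 1784 at a log2 fold change over 1. The lower counts as deposited and as TPM follow the shift of the median of all genes, to -0.43 and -0.74.

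The FOS sum differed by 0.70 as deposited, 0.40 as TPM, 0.86 with quantile normalization, 0.93 with expression bins and 1.37 without replicate 3 of both groups. The JUN sum differed by 0.53, 0.23, 0.53 and 0.49 under the first 4 of these, and by 1.15 with GC bins. The FOS to JUN ratio differed by 0.33 with quantile normalization, 0.046 with GC bins, 0.35 with length bins, 0.44 with expression bins and 0.30 without replicate 3 of both groups. With 1 library left out, the FOS sum ranged from 1.10 to 1.28, the JUN sum from 0.96 to 1.07 and the ratio from 0.12 to 0.26. The cause of these shifts was not tested beyond the construction of each setting.

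With a replicate block, 7 genes were higher and 0 lower. Same-numbered libraries did not deviate together (correlations -0.08, -0.06 and -0.11), so the numbers were not read as pairs. At 110 reads for the lowest Fosb library, the spread between libraries rather than counting limited the comparison.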

Other observations

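Atf3, a stress-induced bZIP gene that dimerizes with JUN proteins, was singled out after its values were seen. It had 0, 6 and 0 reads in the control libraries and 0, 0 and 1 reads in the Al libraries, and 4 of the 6 libraries were listed at 0. At 7 reads over all libraries, a small difference or a fall was not detectable at this depth.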
